A study of Mus musculus with 4 samples.

Results

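IAP, ETn and MMERVK elements are endogenous retroviruses of the mouse, copies of ancient infections that now pass on with the genome and belong to the ERVK class of long terminal repeat (LTR) retrotransposons. The reads described here are small RNAs of 25 to 31 nt that the deposited table named as LTR elements of the ERVK class with a family name beginning with IAP, ETn, MMETn, RLTRETN, MMERVK, RLTR10 or MusD. Each distinct sequence was given the family name with most of its reads over the libraries. This gave 97019 distinct sequences in 45 families, out of 838931 sequences of this length named after any LTR, LINE or SINE element and 3075975 sequences of this length in all. No family name began with MusD.

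IAP stands for intracisternal A-type particle, an element that still makes new copies in laboratory mice. ETn elements are non-coding relatives that depend on the proteins of the related MusD elements. MMERVK10C is a coding family, and RLTR10 names LTRs and internal sequence of ERVK elements. In the male germ line these elements are silenced by piRNAs, small RNAs bound by PIWI proteins that guide the cutting of element transcripts and the methylation of element DNA. A primary piRNA usually begins with U. When a PIWI protein guided by one piRNA cuts an opposite transcript, the new 5' end lies 10 nt from that of the guide, so the new piRNA carries an A at base 10, and such paired cutting is called the ping-pong cycle.

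The libraries came from total RNA of whole testes of mice at postnatal day 16, with 2 wild-type libraries (genotype WT) and 2 libraries of the genotype Hsf5 knockdown. Hsf5 encodes a heat shock factor of the testis that spermatocytes need to pass through pachynema, a stage of meiosis. The study asked how piRNAs change when Hsf5 is lost, and its title names LINE1 silencing. The labels give neither how the knockdown was made nor the strain, and litters and days of collection are not stated. In whole testis, fewer cells of a type and less RNA per cell cannot be told apart.

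Total counts ran from 9260452 to 11117460 reads per library, and 4352106 to 7025053 reads were 25 to 31 nt long. Levels below are in RPM, the reads per 1000000 reads that the library held in the table. Where a library has 0 counts, its level may still be as high as 0.324 RPM at the lowest depth. Values are listed in the order wild type replicates 1 and 2, then knockdown replicates 1 and 2, unless said otherwise. Only 53, 31, 25 and 32 reads matched a spliced Hsf5 transcript in sense, too few and too fragmented to measure the messenger RNA. The X-linked testis germ cell miRNAs listed summed to 10551 to 15965 RPM and the spermatocyte miRNAs to 1142 to 1737 RPM, while the liver miRNA miR-122 stayed between 0.108 and 0.642 RPM. The listed Sertoli and supporting cell miRNAs, of which 1 of 2 was found, gave 788, 567, 825 and 313 RPM. The muscle and vessel miRNAs gave 8099, 7196, 8902 and 8027 RPM, and the blood miRNAs 35.5, 34.0, 40.7 and 28.3 RPM.

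The reads are shown first by their sequences. For each name group these are the 3 most abundant sequences of 25 to 30 nt, leaving out sequences that also match a chromosome not shown here, written with T for U and with bases 1 and 10 in capitals, the places where primary and ping-pong piRNAs differ. Sequences under this limit gave 22.6% of the IAP reads of 25 to 30 nt, 48.3% of the ETn, 65.2% of the MMERVK and 43.4% of the RLTR10 reads, and the rest are not listed.
IAPLTR2b: TaggacgtgTcgctccctgattggctgt
IAPEy-int: TgagtatctTctagggccttctccac
IAPEz-int: TgatagactGtcttgaatttcgttagt
ETnERV-int: TattttggtGagtgtggaccagtgg
MMETn-int: TaaaaatatTtttcggctctgcctcacc
ETnERV2-int: TtggaacaaTgtaggtaagggaagt
MMERVK9E_I: TaatcagtgGatggaaacagggacc
MMERVK10C-int: TcaatcatcAggagtaagaataacaggatc
MMERVK10C-int: TgctcctccAgattgcaaaactcaacagc
RLTR10C: TccgattggTtatactctctctcagt
RLTR10-int: TtgagactaGctgaggttcctggtt
RLTR10C: TccgattggTtatactctctctcagtacct
All of these begin with T, and the MMERVK10C-int sequences are the ones with A at base 10. The IAPLTR2b sequence had 1021, 642, 1015 and 1181 reads and matched 4 places of GRCm39, the build that the submitters' notes call mm39. The 30 nt MMERVK10C-int sequence had 84 and 147 reads in wild-type testes, 0 in knockdown replicate 1 and 146 in knockdown replicate 2, and matched 60 places. Of the 12 sequences, 8 matched 1 place. The 2 RLTR10C sequences share their 5' end on chromosome 15 (78545971 to 78545996 for the shorter one, minus strand, no annotated gene) and differ only in length. On chromosome 17 the ETnERV-int sequence (27574399 to 27574423, plus strand) lay in an exon of the lncRNA Gm49794. The IAPEy-int sequence (27532654 to 27532679, minus strand) lay in introns of the lncRNAs Gm49793 and Gm65436, and the MMETn-int sequence (27508212 to 27508239, minus strand) in an intron of Gm65436.

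The pair of sequences below, under the same limit, had the highest product of reads among pairs whose 5' ends overlap by 10 nt on opposite strands. The capitals mark the 10 overlapping bases, which are reverse complements of each other.
IAPEz-int sense: TCCAGACTGAccaaggaaatactgatgtc
IAPEz-int antisense: TCAGTCTGGAttttttgggtgagtct
Both sequences begin with T and carry A at base 10, opposite the first T of the partner. The sense sequence had 75, 32, 23 and 84 reads, and the antisense sequence had 7, 2, 6 and 4.

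The families together gave 20272 and 16842 RPM in wild-type testes and 17412 and 18504 RPM in knockdown testes, from 225374, 155964, 167495 and 201702 reads. The knockdown values lay between the wild-type values. As a share of all 25 to 31 nt reads the families took 3.92% and 2.93% against 3.85% and 2.87%, and each group held 1 high and 1 low library (difference -0.065 points, exact two-sided permutation p = 0.667). With 6 ways to assign the 4 libraries, 0.33 is the smallest p of such a test. Over the 7 measures tested in this way on the families' reads, the adjusted p was 0.583 or more (Benjamini-Hochberg). Per 1000000 mature miRNA reads, the scale of the authors' factor, they gave 112500, 111621, 85754 and 108803 reads. On that scale both knockdown libraries were below both wild-type libraries.

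IAP families dominated the reads. The 25 IAP families gave 18239, 14801, 15685 and 16307 RPM, which was 87.9% to 90.1% of the reads in each library. The 5 MMERVK families gave 959, 955, 724 and 1222 RPM, the 10 RLTR10 families 634, 712, 561 and 620 RPM, and the 5 ETn families 440, 374, 442 and 356 RPM. RLTR10 reads were lower in each knockdown library than in either wild-type library (exact permutation p = 0.33, the smallest possible), and the other groups overlapped. Within IAP, the 10 internal families gave 14420, 11501, 11804 and 12077 RPM and the 15 LTR families 3819, 3300, 3881 and 4230 RPM. IAP LTR reads were higher in both knockdown libraries than in either wild-type library (4056 ± 246 against 3560 ± 367 RPM, SD, n = 2 each, exact permutation p = 0.33).

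**Figure D1:**
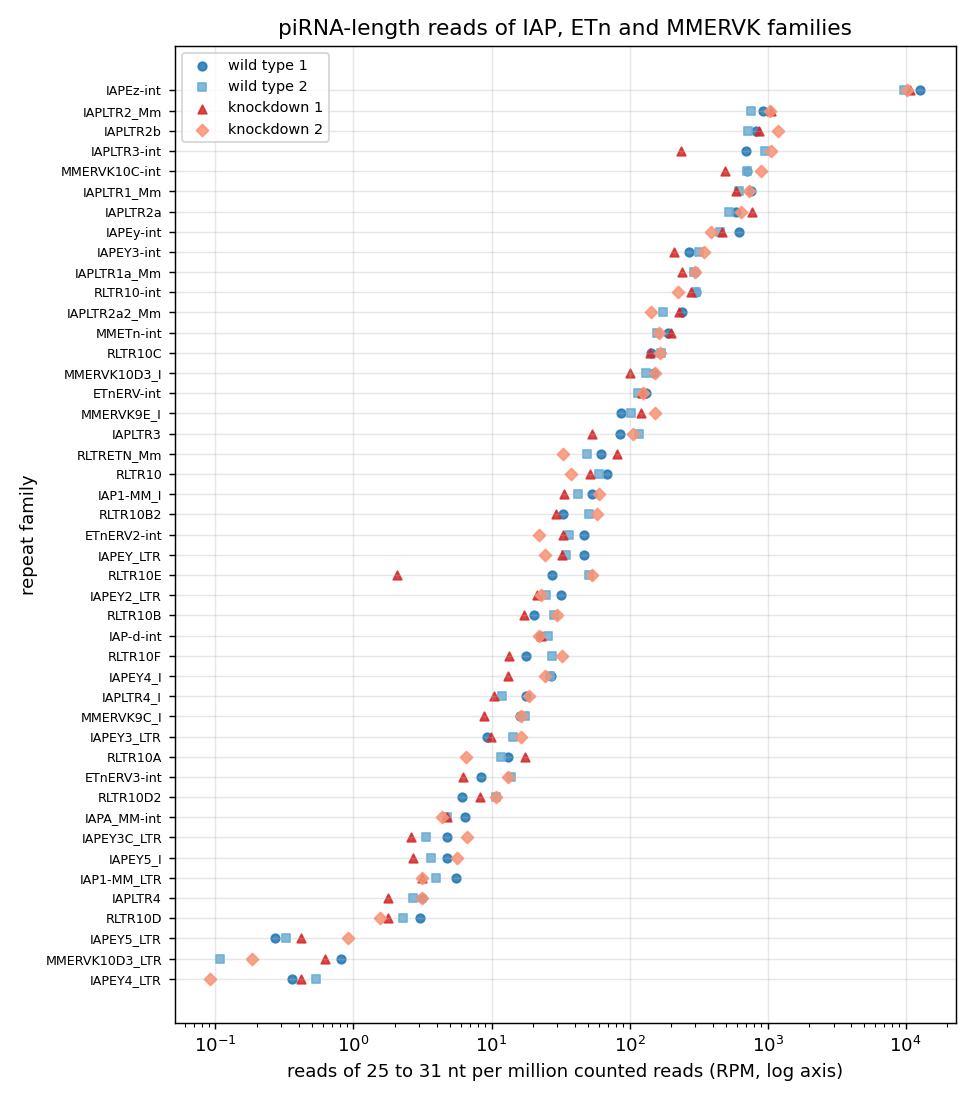
Level of each of the 45 families in the 4 libraries, in RPM of 25 to 31 nt reads on a log axis, with 1 point per library. IAPEz-int lies above all other families at 9658 to 12697 RPM, and RLTR10E stands out by the low point of knockdown replicate 1 at 2.08 RPM.

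No family was called different between the groups. In edgeR's quasi-likelihood test over all transposon families, 0 of 793 families passed at an adjusted p of 0.05 (0% called), and 0 of the 45 families, all of which passed the filter on low counts. At an unadjusted p under 0.05 the test gave 10 higher and 6 lower families among the 793 (1.26% and 0.757%), none of them among the 45. DESeq2 called 0 families. Of the 45, 15 had a log2 difference above 0 and 30 below, with a median of -0.05, beside 385 and 408 of all 793 with a median of -0.01. When counts were scaled by mature miRNA reads, the median of all families moved to -0.18 and that of the 45 to -0.28, with 6 above 0 and 39 below, so the sign of small differences depends on the scale.

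Read against the ranges alone, 5 of the 45 families were higher in both knockdown libraries than in both wild-type libraries by RPM, beside 9.96% of all families, and 8 of the 45 were lower in both, beside 10.6%. Those higher were IAPLTR2_Mm, IAPLTR2a, IAPLTR2b, IAPEY5_LTR and MMERVK9E_I. The lower ones were RLTR10, RLTR10-int, RLTR10D, ETnERV2-int, IAP1-MM_LTR, IAPEY_LTR, IAPEY2_LTR and IAPEY4_I. Families in these lists were picked by their values and get no further test.

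Among the internal regions, IAPEz-int, the coding part of the active IAP elements, gave 12697 and 9658 RPM in wild-type testes and 10807 and 10147 RPM in knockdown testes. The knockdown values fell inside the wild-type range, and the log2 difference was -0.03 with an SE of 0.36 (edgeR quasi-likelihood test, adjusted p = 0.996). IAPLTR3-int gave 698, 957, 237 and 1064 RPM, with knockdown replicate 1 lowest and knockdown replicate 2 highest. MMERVK10C-int gave 705, 703, 492 and 899 RPM, again with the knockdown libraries on both sides of the wild type. MMETn-int gave 191, 159, 198 and 163 RPM and ETnERV-int 132, 115, 123 and 125 RPM, both with overlapping groups. ETnERV2-int gave 46.8 and 36.5 RPM against 33.2 and 22.2 RPM, lower in both knockdown libraries, with a log2 difference of -0.48 and an SE of 0.48. That difference was -1.14 without knockdown replicate 1 and -0.025 without knockdown replicate 2. The ETnERV2-int sequence listed above, which has no exact place in GRCm39, was itself lower in both knockdown libraries. It gave 278, 171, 144 and 48 of the family's 520, 338, 319 and 242 reads. The rest of the family's reads overlapped between the groups, and their difference was not tested.

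RLTR10-int gave 301 RPM in each wild-type library and 279 and 224 RPM in knockdown testes, and its fitted difference was -0.16 on the log2 scale with an SE of 0.40. MMERVK9E_I gave 86.2 and 103 RPM against 120 and 153 RPM, higher in both knockdown libraries (log2 difference 0.58, SE 0.41, adjusted p = 0.996 in edgeR's quasi-likelihood test). MMERVK10D3_I gave 151, 131, 102 and 153 RPM, and MMERVK9C_I 16.1, 17.4, 8.84 and 16.4 RPM. Both were lowest in knockdown replicate 1, with the other libraries close together.

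LTRs hold the promoter of a retroviral element. IAPLTR2_Mm gave 932 and 760 RPM in wild-type testes and 1061 and 1041 RPM in knockdown testes, and IAPLTR2b gave 823 and 718 against 869 and 1188 RPM. IAPLTR2a, named after its values were seen, gave 586 and 528 against 768 and 640 RPM. For all 3 LTRs the groups did not overlap, and the log2 differences were 0.38, 0.44 and 0.43 with SEs of 0.36, 0.34 and 0.38, none past the threshold. Without knockdown replicate 1 the difference of IAPLTR2_Mm was 0.065 and that of IAPLTR2a -0.028, and with reads of 1 place they were -0.041 and -0.47. RLTRETN_Mm, the LTR of ETn elements, gave 61.9, 49.3, 81.3 and 33.1 RPM, with the knockdown libraries outside the wild-type range on either side. RLTR10C gave 144, 169, 140 and 165 RPM, RLTR10 68.8, 59.7, 51.6 and 37.7 RPM, and RLTR10B2 32.7, 51.0, 29.2 and 57.6 RPM. The extremes of the fit were the sparse LTRs IAPEY5_LTR (0.270, 0.324, 0.416 and 0.917 RPM, log2 difference 1.14, SE 0.92) and IAPEY4_LTR (0.360, 0.540, 0.416 and 0.092 RPM, log2 difference -0.73, SE 1.10), both near the level of a few reads.

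Several families took a large share of their uniquely placed reads from a single spot of the genome. Among the families examined this share ran from 16.4% in IAPEz-int to 96.0% in RLTR10E. Reads with 1 exact place were 6.35%, 7.83%, 6.32% and 7.93% of the families' reads, whereas 65.3%, 61.6%, 67.0% and 63.7% matched more than 100 places, so these spots cover a minor part of most families. RLTR10E, named after its values were seen, gave 27.3 and 51.1 RPM in wild-type testes, 2.08 RPM in knockdown replicate 1 and 53.7 RPM in knockdown replicate 2. Of its reads, 59.2%, 64.9%, 0% and 65.5% had 1 place on the minus strand of chromosome 10, with 5' ends from 66524202 to 66529851. These were 180, 307, 0 and 383 reads, outside annotated exons, in a window that overlaps the processed pseudogene Gm47894. The rest of the RLTR10E reads also came to 11.2, 17.9, 2.08 and 18.5 RPM. In the same place MMERVK10C-int had 268, 469, 0 and 773 reads.

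That spot lies in a piRNA locus of the deposited annotation, 10-qB5.1. Reads named after this locus around the spot gave 733, 1448, 2.29 and 1511 RPM, so they were nearly absent from the same library as the RLTR10E and MMERVK10C-int reads. Outside the spot MMERVK10C-int still gave 681, 653, 492 and 828 RPM. The fitted log2 difference of RLTR10E was -3.88 without knockdown replicate 2 and 0.26 without knockdown replicate 1. Its direction thus depended on which knockdown library was left out, and each of these fits holds 1 knockdown library.

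IAPLTR3-int took 1064, 1105, 243 and 2006 reads from the minus strand of chromosome 14, with 5' ends from 19680105 to 19686013 in introns of the lncRNA Gm41102. Reads of the piRNA locus around it, 14-qA3, gave 477, 866, 101 and 858 RPM, again lowest in knockdown replicate 1. The rest of IAPLTR3-int, 602, 837, 211 and 880 RPM, was lowest in that library too. RLTR10C took 535, 674, 503 and 572 reads, 31.7% to 43.1% of the family, from an intergenic stretch of chromosome 15 (5' ends from 78545820 to 78546181, minus strand) in the locus 15-qE1.

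Neighbouring spots on chromosome 17, in or near a pair of loci named 17-qA3.3, held sequences of 7 families. The ETnERV-int sequence shown above gave 151, 194, 314 and 254 reads there. MMETn-int gave 512, 266, 490 and 174 reads between 27508169 and 27508890, and IAPLTR2_Mm 700, 425, 509 and 593 reads between 27569976 and 27573811, 98.4% of them in exons of Gm49794 or Gm49795. IAPEy-int gave 640, 527, 1070 and 381 reads with 5' ends at 27532678 and 27532679. ETnERV-int was higher here in both knockdown libraries by RPM (13.6 and 20.9 against 32.6 and 23.3), as were MMERVK9E_I between 27491024 and 27499984 (15.8 and 25.8 against 33.4 and 49.8) and RLTR10F between 27497792 and 27498054 (1.89 and 2.70 against 4.16 and 5.69). MMETn-int, IAPEy-int, IAPLTR2_Mm and a further spot of ETnERV2-int (4.14, 4.32, 7.59 and 3.21 RPM) overlapped. Among the spots examined on other chromosomes, that of IAPLTR2b was also higher in both knockdown libraries (11.3 and 11.1 against 16.8 and 13.9 RPM). Those of IAPLTR2a (9.89 and 12.6 against 8.004 and 2.02 RPM) and IAPEY2_LTR (8.01 and 4.97 against 2.91 and 4.68 RPM) were lower in both. At the remaining spots the groups overlapped, and differences at single spots were not tested. Reads named after the piRNA locus around the ETnERV-int spot gave 49133, 48397, 70141 and 49187 RPM, highest in knockdown replicate 1.

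Lengths differed most between the 2 knockdown libraries. Reads of the families peaked at 27 nt in both wild-type libraries and in knockdown replicate 2, and at 26 nt in knockdown replicate 1. The ratio of reads of 29 to 31 nt to reads of 25 to 28 nt was 0.628 and 0.606 in wild-type testes, 0.307 in knockdown replicate 1 and 0.765 in knockdown replicate 2 (difference -0.081, exact permutation p = 1). All other 25 to 31 nt reads of the same libraries had ratios of 0.487, 0.463, 0.220 and 0.597, in the same order of libraries. Reads of 29 to 31 nt gave 7822, 6354, 4093 and 8022 RPM, and reads of 25 to 28 nt 12450, 10488, 13319 and 10482 RPM. At the edges of the length rule, reads with these names gave 760, 864, 1139 and 614 RPM at 24 nt and 1498, 1560, 2088 and 1264 RPM at 25 nt. They gave 1708, 1270, 649 and 1985 RPM at 31 nt and 646, 406, 202 and 653 RPM at 32 nt.

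**Figure D2:**
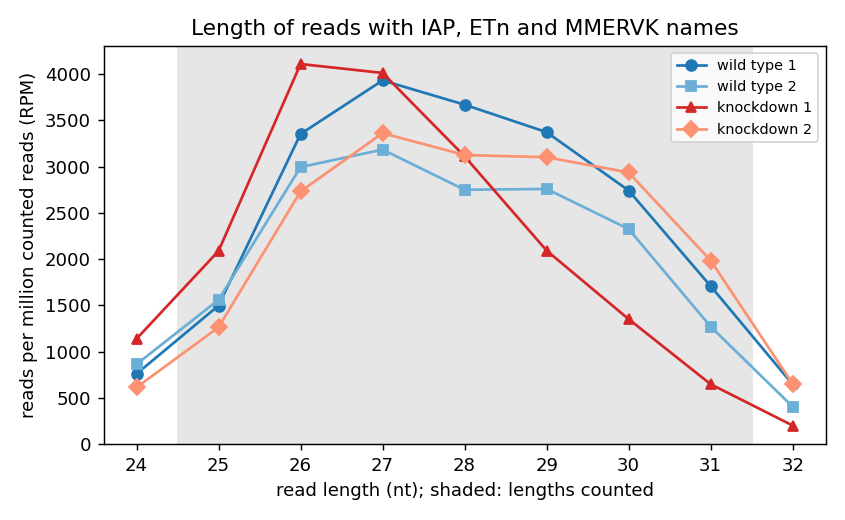
Reads of the families at each length from 24 to 32 nt in the 4 libraries, in RPM, with the counted lengths shaded. Knockdown replicate 1 peaks at 26 nt and falls to 649 RPM at 31 nt, while knockdown replicate 2 stays highest there at 1985 RPM.

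The name groups differed in length within each library. ETn reads were the shortest, with long to short ratios of 0.268, 0.193, 0.129 and 0.245. IAP reads had ratios of 0.647, 0.617, 0.315 and 0.793, and those of MMERVK (0.542, 0.632, 0.257 and 0.702) and RLTR10 (0.557, 0.628, 0.313 and 0.610) lay above ETn in 4 of 4 libraries. Among families with at least 300 reads in each library, 6 of 21 had a lower ratio in both knockdown libraries, beside 10.4% of the 250 families with as many reads, and 0 of 21 a higher one, beside 0.4%. Against other ERVK families the ratio was higher by 0.125 on average and in 4 of 4 libraries, and against ERVL-MaLR, an older LTR class, by 0.173 and in 4 of 4 (exact sign-flip permutation over 4 libraries, two-sided p = 0.125 each, the smallest possible, adjusted p = 0.188). Against young LINE1 families it was higher in 1 of 4 libraries, with a mean difference of -0.0018 (exact sign-flip permutation p = 1).

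The first base was U in most reads of the families, 82.4% and 81.8% in wild-type testes and 83.4% and 84.3% in knockdown testes. Both knockdown libraries were higher (difference 1.75 points, exact permutation p = 0.33). A began 7.09%, 7.14%, 6.26% and 6.51% of reads, C 6.90%, 7.15%, 6.81% and 6.57%, and G 3.61%, 3.91%, 3.56% and 2.60%. A higher U share in both knockdown libraries was seen in 7 of the 21 families with enough reads, beside 38% of the 250 such families, and 0 of 21 had a lower one, beside 3.6%. All other 25 to 31 nt reads had U shares of 76.1%, 83.6%, 81.6% and 85.2%. IAPLTR2b and IAPLTR2a were rich in U, at 91.5% to 95.8% and 88.8% to 94.5%, whereas IAPLTR1a_Mm, named after its values were seen, had 61.3% to 66.8%.

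A stood at base 10 in 35.3% and 36.3% of the families' reads in wild-type testes and in 31.4% and 32.6% in knockdown testes. Both knockdown libraries were lower, by 3.78 points on average (SD 0.67 and 0.85 points, n = 2 each, exact permutation p = 0.33). The neighbouring bases held less A, with 23.7%, 23.2%, 22.4% and 22.5% at base 9 and 22.2%, 22.3%, 21.2% and 21.1% at base 11, and these too were lower in both knockdown libraries. Of the 21 families with enough reads, 9 had a lower share in both knockdown libraries, beside 24% of the 250 such families, and 0 a higher one, beside 5.2%. Other 25 to 31 nt reads had 25.3%, 26.4%, 24.3% and 25.6% A at base 10, with overlapping groups. Lower values in both knockdown libraries were also seen in ERVL-MaLR (33.5%, 32.5%, 28.5% and 32.3%). The same held over all transposon reads, which include the families (33.5%, 33.04%, 29.1% and 32.4%). The groups overlapped in other ERVK families (29.6%, 31.1%, 26.3% and 30.9%) and in young LINE1 (43.6%, 45.5%, 41.8% and 48.7%).

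Reads that do not begin with U were taken apart, since most primary piRNAs begin with U. In them A stood at base 10 in 60.8%, 61.8%, 57.9% and 60.5% of the families' reads, against 29.9%, 30.6%, 26.1% and 27.4% of reads that begin with U. The knockdown libraries were lower by 2.16 points on average, less than the distance between them of 57.9% to 60.5% (exact permutation p = 0.33). By family, 4 of the 21 were lower in both knockdown libraries and 1 higher, beside 17.6% and 11.2% of the 250. IAPEz-int had the highest share in each library among the 21 families with at least 300 reads per library, at 68.7%, 71.6%, 66.7% and 71.3%. Longer reads held more A at base 10 than shorter ones, 43.8%, 45.6%, 42.8% and 39.4% at 29 to 31 nt against 29.97%, 30.6%, 27.9% and 27.4% at 25 to 28 nt. Both length classes were lower in both knockdown libraries.

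Among reads without a first U, the pooled reads of the families exceeded the other transposons compared. Other ERVK families had 46.5%, 53.3%, 46.0% and 47.2% A at base 10, ERVL-MaLR 45.3%, 48.2%, 41.8% and 48.8%, and the young LINE1 families (L1MdA, L1MdTf and L1MdGf) 41.5%, 47.1%, 42.5% and 56.9%. The families were higher in 4 of 4 libraries against each set, by 12.0, 14.2 and 13.3 points on average (exact sign-flip permutation, two-sided p = 0.125 each, the smallest possible with 4 libraries). Over the 18 comparisons made with these 3 sets, the adjusted p of these was 0.188 (Benjamini-Hochberg). IAPEz-int, with the highest share above, also gave most of the pooled reads, at 12697, 9658, 10807 and 10147 RPM. The median over the 21 families with at least 300 reads per library was lower, at 47.7%, 50.1%, 43.0% and 45.7%. Over the 250 such families it was 35.7%, 37.7%, 33.3% and 38.4%. The sets were not compared without IAPEz-int. Over all reads the order was different, since young LINE1 reads had more A at base 10 (43.6%, 45.5%, 41.8% and 48.7%) and less first U (56.0%, 60.6%, 56.9% and 70.8%) than the families in every library.

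**Figure D3:**
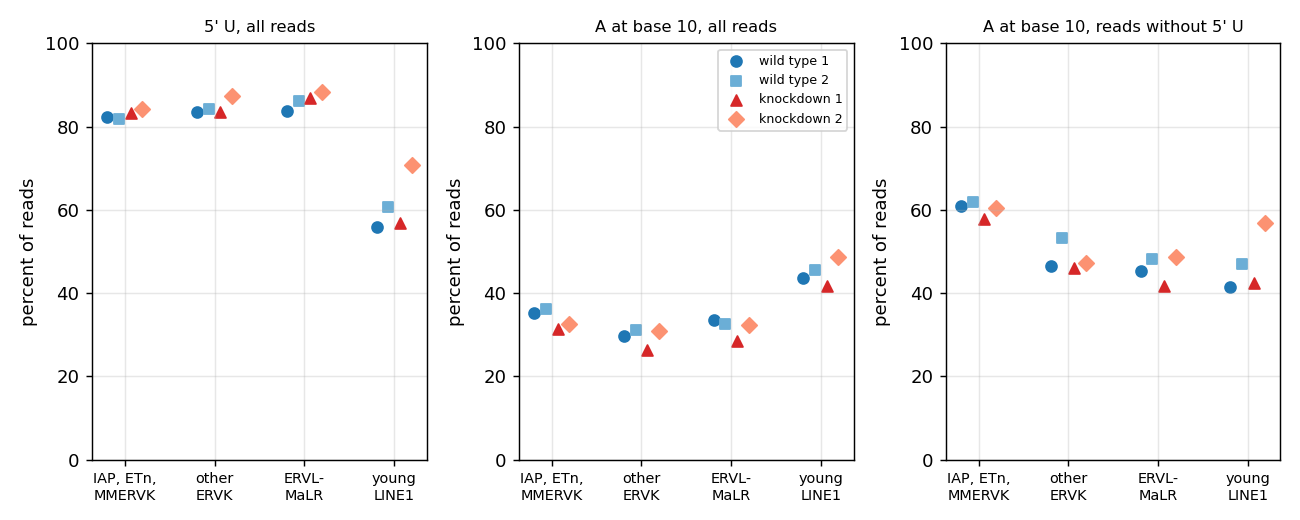
Percent of 25 to 31 nt reads with a first U (left), with A at base 10 (middle) and with A at base 10 among reads without a first U (right), for the IAP, ETn and MMERVK families, other ERVK families, ERVL-MaLR and young LINE1, with 1 point per library. In the right panel the families, with their reads pooled, lie at 57.9% to 61.8%, above the same library's point in each other set.

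Overlaps of 5' ends on opposite strands peaked at 10 nt in every library. Overlaps of 10 nt were 31.3%, 30.6%, 32.96% and 25.1% of all overlaps of 1 to 20 nt, weighted by reads over places. The Z score of the 10 nt overlap against the other lengths was 21.4 and 18.8 in wild-type testes and 19.6 and 13.8 in knockdown testes, which overlap (difference -3.35, exact permutation p = 0.667). With each distinct sequence counted once, the Z scores were 9.64, 8.73, 8.88 and 7.51. Reads with 1 place, taken alone, gave Z scores from -0.48 to 0.42. By name group, IAP had Z scores of 20.9, 18.6, 19.5 and 13.4, RLTR10 6.32, 8.56, 5.80 and 15.1, ETn 3.96, 10.4, 2.59 and 7.92, and MMERVK 0.76, 3.38, 3.06 and 1.06. Other ERVK families had 9.41, 10.7, 12.5 and 14.8, below the families in 3 of 4 libraries. Their share of 10 nt overlaps was 29.4%, 36.3%, 31.51% and 40.2%, and their Z scores over distinct sequences were 9.003, 10.1, 8.85 and 10.1. By either of these measures the families were higher in 2 of 4 libraries, so the order depends on the measure.

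**Figure D4:**
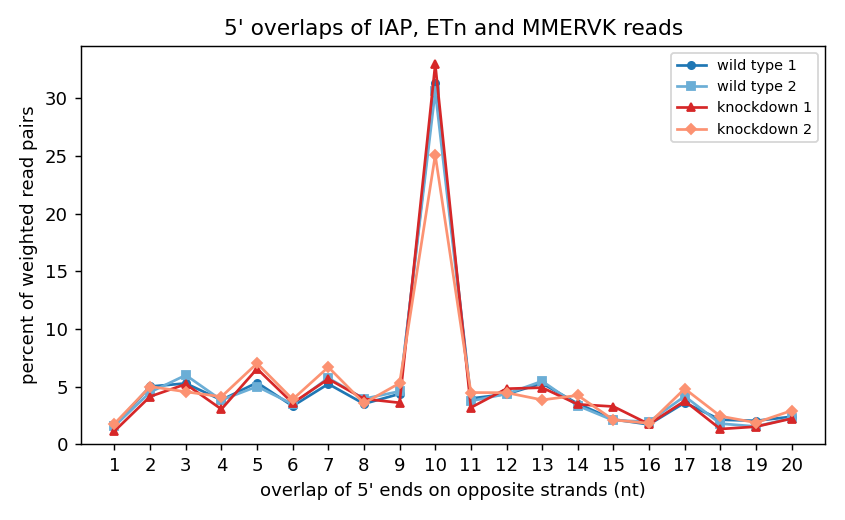
Percent of weighted pairs of opposite-strand reads of the families at each overlap of 5' ends from 1 to 20 nt, with 1 line per library. The 10 nt overlap takes 25.1% to 32.96%, and no other length reaches 10% in any library.

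Direction was read from the strand of long open reading frames, since the deposited table gives none. In GRCm39, 14783 frames of at least 600 codons were found, and 2488 of them held at least 50 matches of the families' sequences. Where 2 such frames lay within 1500 nt of each other, 659 of 664 pairs were on the same strand. Sequences within 1000 nt of these frames could be given a direction for 73.9%, 70.8%, 74.0% and 72.9% of the reads. Antisense reads were 61.7% and 61.8% of them in wild-type testes and 65.3% and 63.3% in knockdown testes, higher in both (difference 2.55 points, exact permutation p = 0.33). Within the frames alone antisense reads were 58.0%, 57.3%, 58.1% and 57.5%, and with frames of at least 400 codons 60.8%, 61.7%, 63.95% and 60.6%, and in both cases the groups overlapped. The difference turned to -1.74 points with each distinct sequence counted once and to -1.45 points with reads of 1 place.

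Antisense and sense reads differed in both base marks. Antisense reads began with U in 87.0%, 85.9%, 88.5% and 88.4% and had A at base 10 in 30.2%, 32.1%, 26.5% and 26.4%. Sense reads began with U in 75.7%, 75.1%, 74.5% and 77.6% and had A at base 10 in 48.5%, 48.5%, 45.6% and 46.6%. Sense reads thus held more A at base 10 by 18.5 points and less first U by 11.7 points on average, each in 4 of 4 libraries (exact sign-flip permutation, two-sided p = 0.125, the smallest possible). Sense reads were also longer in 4 of 4 libraries, with long to short ratios of 0.732, 0.749, 0.469 and 0.799 against 0.512, 0.465, 0.208 and 0.668. In IAPEz-int alone, sense reads had A at base 10 in 54.2%, 54.1%, 50.7% and 52.8%, and antisense reads in 32.3%, 34.9%, 28.1% and 30.7%. The strands lay closer among IAPEz-int reads without a first U. There sense reads had A at base 10 in 71.8%, 72.9%, 71.5% and 73.9%, and antisense reads in 65.9%, 70.0%, 61.3% and 68.9%.

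LTR families ranged from almost all antisense to mostly sense. Of the reads with a direction, IAPLTR2b was antisense in 97.02%, 97.2%, 98.4% and 99.2%, IAPLTR2a in 97.8%, 97.8%, 98.2% and 98.6% and IAPLTR2_Mm in 85.3%, 83.4%, 87.0% and 90.3%. IAPLTR1_Mm was antisense in 44.3%, 46.5%, 53.3% and 42.8% and IAPLTR1a_Mm in 29.9%, 34.9%, 31.9% and 34.9%, while the internal families IAPEz-int and IAPEy-int had 61.4%, 59.9%, 64.2% and 59.4% and 25.7%, 25.4%, 22.9% and 31.4%. IAPLTR1_Mm and IAPEy-int, like IAPLTR2a and IAPLTR1a_Mm, were named after their values were seen. IAPLTR2a and IAPLTR2b were low in A at base 10, at 7.13% to 10.3% and 6.68% to 10.7% of all their reads. IAPLTR2a2_Mm, also named after its values were seen, was antisense in 90.6%, 92.9%, 88.1% and 96.5% but had A at base 10 in 24.97% to 27.8%.

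The reads were laid out along 1 IAP element, the one with both long frames, outside the chromosome not shown here, whose sequence the most IAP reads matched exactly. It lies on chromosome 11 from 18756347 to 18763762 (minus strand, 7416 nt), where it overlaps the lncRNA genes Gm31674 and Gm73515 but none of their exons. Its LTRs of 474 nt are 99.4% identical, and its long frames have 622 and 895 codons. Of the families' sequences, 10988 matched it exactly, with 30.5%, 28.8%, 30.3% and 30.9% of the families' reads, though most of these also match other copies. Averaged over the libraries, antisense reads were highest around 750 nt from the element's start, at the beginning of the first frame, with 751, 481, 509 and 1070 RPM per 100 nt. Each LTR held 576, 526, 617 and 546 RPM of antisense reads against 85.6, 81.3, 76.7 and 68.0 RPM of sense reads in the first LTR, and since the LTRs are nearly identical these are largely the same reads. Sense reads were highest around 5850 nt, near the end of the second frame, with 267, 156, 153 and 235 RPM per 100 nt. In each of the 4 libraries the highest antisense values stood around 50, 750 and 7050 nt and the highest sense value around 5850 nt.

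**Figure D5:**
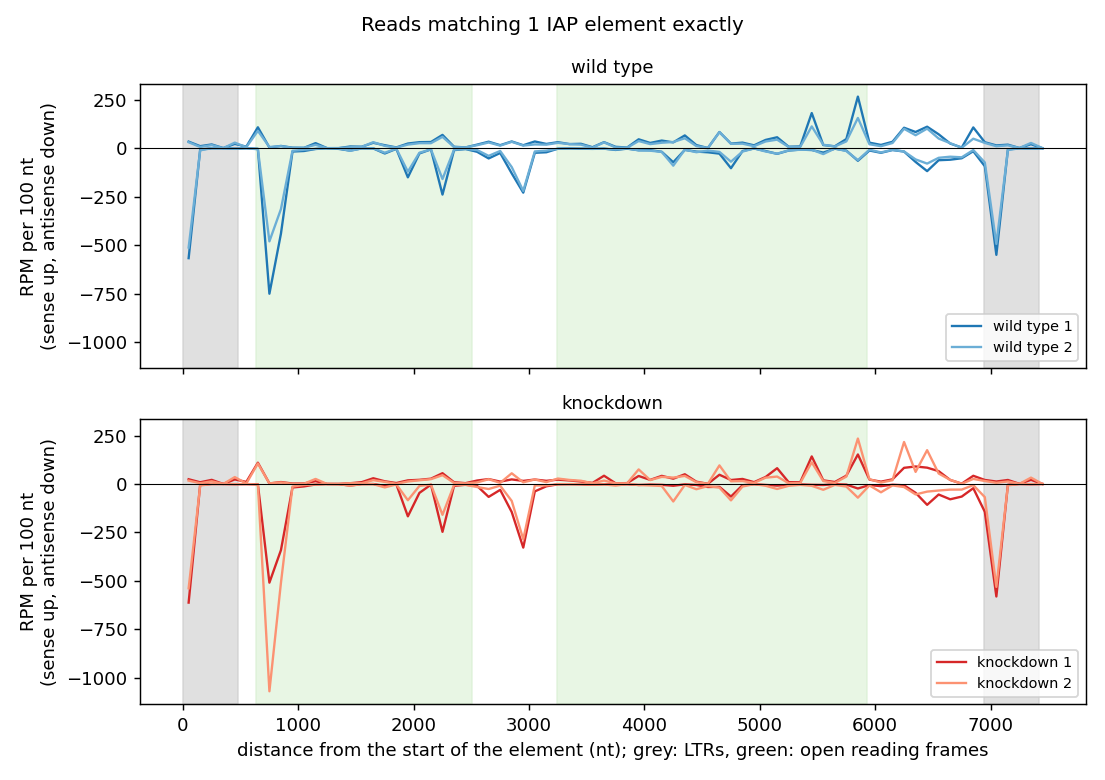
Reads of the families that match 1 IAP element exactly, in RPM per 100 nt along its length in nt, with sense reads above and antisense reads below the axis, wild type in the upper and knockdown in the lower panel and 1 line per library. Grey marks the LTRs and green the long frames, and antisense peaks stand in both LTRs and near 750 nt, where knockdown replicate 2 reaches 1070 RPM.

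Many sequences were seen once or in a single library. Of the 97019 distinct sequences, 7584 (7.82%) were found in all 4 libraries and 66795 in 1 only, but those found in all 4 carried 66.1% to 73.6% of the families' reads. The 10 most abundant sequences of each library held 8.10%, 6.83%, 9.81% and 12.6% of its reads, and the 100 most abundant 23.9%, 21.1%, 27.4% and 28.4%. These shares were higher in both knockdown libraries than in either wild-type library. Reads without an exact place in GRCm39 were 8.78%, 9.11%, 8.14% and 8.07%.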

How the data were processed

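Small RNA libraries had inserts of 18 to 40 nt, per the labels' protocol. The submitters' processing notes list cutadapt, without its version or role, and the build mm39. No aligner, mismatch limit or order of annotation is given in the sources used here. The authors deposited raw counts per distinct sequence, library and annotation, and a ratio, the authors' factor of 0.499, 0.716, 0.512 and 0.539, which equals 1000000 divided by the mature miRNA reads of the library. The deposited table calls the knockdown libraries KO, and the wording of the labels is used here.

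Of 12700077 lines, each of 6208912 pairs of sequence and library was counted once, and each of 4496542 sequences was given 1 name over the libraries. Depths ranged from 9260452 to 11117460 counts, and floors cover counting error only. Counts per family at 25 to 31 nt were tested over all LTR, LINE and SINE families (the table has no class of DNA elements) with edgeR 4.0.16 (quasi-likelihood F test, robust, TMM factors 0.994, 1.03, 0.964 and 1.01, 1 CPM in at least 2 libraries, Benjamini-Hochberg adjustment at 0.05), and with DESeq2 1.42.0 as an alternative. The fit was tested on simulated data. Shares were compared by exact permutation tests, and comparisons within libraries by exact sign flips. Family shares needed 300 reads in each library. Sequences of 24 to 32 nt were matched exactly to GRCm39 chromosomes 1 to 19, X and Y and annotated with GENCODE M39. A sequence had a direction where at least 90% of its matches within 1000 nt of a frame lay on 1 strand.

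The labels call the libraries biological replicates. Libraries of equal number correlated in their deviations over all families by 0.25 and over the 45 described here by 0.54, and with 2 pairs this does not pair them. The families, name groups, miRNA lists and comparison sets were chosen with earlier results of these data known, and the rule for direction after its values were seen under several settings. The text names the 4 families with the highest mean RPM in each name group and the extremes of the fit, and says where others were added.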

Additional observations from a re-analysis of the deposited data

How the results depend on the processing

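The mean differences in A at base 10 and in first U kept their sign under every alternative run, with leave-one-out ranges of -4.39 to -3.18 and 1.27 to 2.23 points. So did A at base 10 without first U (-3.46 to -0.86 points) and the ping-pong Z score (-6.23 to -0.46). The groups overlapped, though, for first U with distinct sequences (68.7%, 69.8%, 68.5% and 72.0%). They also overlapped for A at base 10 with reads of 1 place (26.4%, 28.6%, 21.9% and 27.4%). A at base 10 without first U overlapped with distinct sequences and at 24 to 32 nt. With reads of 1 place the difference in Z score was -0.053. The share of the families turned to 0.037 points with distinct sequences and ranged from -0.56 (without wild type replicate 2) to 0.43 points (without wild type replicate 1 and, at 0.42, without knockdown replicate 2). The length ratio ranged from -0.31 (without knockdown replicate 2) to 0.15 (without knockdown replicate 1). The antisense difference turned to -1.74 points with distinct sequences and -1.45 with reads of 1 place, fell to 0.12 within frames and 1.05 with frames of at least 400 codons, was 2.45 with 800 codons, and ranged from 1.52 to 3.58 when 1 library was left out; the frame settings and a window of 25 to 28 nt were chosen after seeing the data. Families called were 0 to 54 of all when 1 library was left out (8 without knockdown replicate 1, 54 without knockdown replicate 2, where the lone knockdown library is assumed to vary like the wild type) and 0 to 1 of the 45. With the replicate block in the fit, 1 family of all and 0 of the 45 were called. Since the numbers do not pair the libraries, shares have no block value.

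Log2 differences of single families turned as follows. None was past the threshold where it turned. RLTR10E at -3.88 kept its direction, in a fit with 1 knockdown library. With counts scaled by mature miRNA reads, MMETn-int was -0.13, ETnERV-int -0.15, RLTRETN_Mm -0.17, RLTR10C -0.21 and RLTR10B2 -0.11. RLTR10C was -0.0061 with DESeq2, -0.0059 with its size factors and -0.034 per counted read. With names as deposited MMERVK10C-int was 0.00031, and with the block RLTRETN_Mm was -0.038. With reads of 1 place MMETn-int was -0.012, IAPLTR2_Mm -0.041, MMERVK10C-int 0.13, RLTR10-int 0.58, RLTR10C -0.15, RLTR10B2 -0.10, IAPEY4_LTR 3.16 and IAPLTR2a -0.47. Leaving out 1 library at a time, the ranges were -0.34 to 0.49 for MMETn-int, -0.21 to 0.31 for ETnERV-int, -0.98 to 0.85 for RLTRETN_Mm, -0.38 to 0.29 for IAPEz-int, -1.47 to 0.16 for IAPLTR3-int, -0.20 to 0.13 for MMERVK10C-int, -0.33 to 0.066 for MMERVK10D3_I, -0.65 to 0.21 for RLTR10-int, -0.14 to 0.17 for RLTR10C, -0.18 to 0.29 for RLTR10B2, -2.34 to 0.22 for IAPEY4_LTR, -3.88 to 0.26 for RLTR10E and -0.028 to 0.77 for IAPLTR2a. Without a turn, the range was 0.065 to 0.63 for IAPLTR2_Mm, -1.14 to -0.025 for ETnERV2-int and -0.999 to -0.0089 for RLTR10. The cause of these turns was not tested. The common biological coefficient of variation was 0.389 with 2 libraries a group.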
